A study of Mus musculus with 9 samples.

Results

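The expression of 9 genes of the fast-twitch contractile apparatus was examined in the left tibialis anterior of 3 mouse genotypes: Myl1, Mylpf, Tnnt3, Tnni2, Tnnc2, Tpm1, Actn3, Myoz1 and Mylk2. They were taken by name from the table of normalized counts, where all 9 were found among 56805 genes, and all 9 passed the filter on low values that left 15279 genes for testing. The mice were wild type (WT), Svil-KO or Svil-Mut, named for Svil, the gene of supervillin, which binds actin and myosin beneath the cell membrane. All were males of 13 months, with 3 mice and 3 libraries per genotype, numbered as in the labels: 1, 3 and 4 for WT and for Svil-KO, and 1, 2 and 4 for Svil-Mut. The labels name no other treatment or allele, and they do not give the background strain, how either Svil allele was made, or whether mice were littermates. They also do not say whether the deletion or mutation was limited to muscle.

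A sarcomere contracts when myosin heads on the thick filament pull on actin in the thin filament. Each myosin head carries an essential and a regulatory light chain, and calcium opens the thin filament by binding troponin, which shifts tropomyosin. Fast and slow fibres use different isoforms of most of these proteins, encoded by separate genes, and tibialis anterior is a mainly fast muscle. At the Z-disc, alpha-actinin 3 cross-links the thin filaments of fast fibres, and the calsarcin Myoz1 binds both alpha-actinin and the phosphatase calcineurin.

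Reads assigned to genes, recovered from the normalized counts, numbered 36234428 to 48762188 per library, with 19282 to 19988 genes detected. Svil was counted at 8686, 9373 and 8407 in WT 1, 3 and 4, at 7402, 6746 and 6656 in Svil-KO 1, 3 and 4, and at 4615, 3939 and 4582 in Svil-Mut 1, 2 and 4, so both mutant groups lay below every WT library and transcript remained in each. The labelled tissue fitted its markers, with the fast myosin heavy chain gene Myh4 at 1777797 to 2610190 and the slow Myh7 at 14.3 to 2476 over the 9 libraries, highest in Svil-KO 1. A normalized count is here the number of reads of a gene divided by a size factor of its library. Some libraries stood apart in ways that touch the results below. The summed level of 5 red blood cell markers was 49200 in Svil-Mut 4 and 14264 in Svil-Mut 2, against 2627 to 8134 in the other libraries. None of the 9 lists of markers of other cell types held a gene called by limma or edgeR. DESeq2 called 1 marker, the satellite cell gene Calcr, lower in Svil-Mut than in WT, where it called 1.13% of all genes. Calcr counts were low throughout, at 49.2, 15.2 and 12.2 in WT 1, 3 and 4. They were 0, 0 and 2.39 in Svil-KO 1, 3 and 4, and 0 in each Svil-Mut library. In Svil-Mut against WT, 5 of 5 red blood cell markers had positive differences (49.3% of all genes did). The same 5 had an unadjusted limma p under 0.05 (10% of all genes did). Of 6 adipocyte markers, 5 had negative differences and 1 a positive one. Cidec and Lep were at 0 in Svil-Mut 1 and 2, but at 53.9 and 11.4 in Svil-Mut 4, which had the highest adipocyte sum of all libraries (1668). The summed level of the 8 slow counterparts of the fast genes was 21574 in Svil-Mut 2 and 41378 to 65863 elsewhere. Most of each sum was 1 gene, Actn2, at 19712 in Svil-Mut 2 and 36273 to 50653 elsewhere, so the sum does not measure slow fibres. In whole muscle, fewer fibres of a type and less RNA per fibre cannot be told apart.

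Together the 9 genes took 8.35% ± 0.22 of the reads assigned to genes in the WT libraries, 7.96% ± 0.55 in those of Svil-KO and 8.94% ± 0.55 in those of Svil-Mut (SD, n = 3). By raw abundance in WT, Tpm1 ranked 5 and Tnnt3 ranked 6 among all genes, while Mylk2 ranked 112 and Tnnc2 ranked 919. Per kilobase of exon, the WT order was led by Tnnt3 at 483255 ± 18416 and Tnni2 at 311913 ± 13286 (SD, n = 3). Mylpf at 212559 ± 27594 and Myl1 at 206821 ± 13140 followed and did not differ beyond their spread. Tpm1 at 133669 ± 1976 and Actn3 at 132557 ± 12212 formed a second pair that did not differ beyond its spread. Myoz1 lay at 57830 ± 1786, Mylk2 at 11070 ± 2399 and Tnnc2 at 6318 ± 372 per kilobase. The last place of Tnnc2 depends on the length used. With all its counts set over the 208 exon bases it does not share with another gene, it would be at 24301 ± 1429, above Mylk2. That value holds only if no counted read came from the shared bases, which is not known. Lengths are those of all annotated exons of a gene, so a gene with many alternative exons, such as Tpm1, gets a low value per kilobase, and the isoforms of Tpm1, Tnnt3 and Myl1 are not separated. Of the 50-base words in annotated Myl1 transcripts, 11.7% also occur in the pseudogene Mylf-ps, so a share of its reads may be counted elsewhere.

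**Figure D1:**
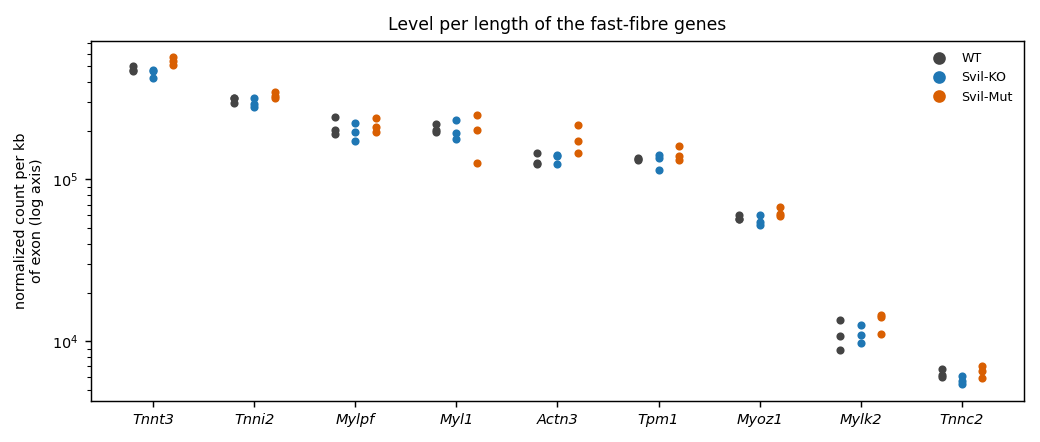
Normalized count per kilobase of exon (log axis) of the 9 fast-fibre genes, ordered by their mean, with 1 point per library and the colour giving the genotype. Tnnt3 is highest, and Tnnc2, the gene of another subunit of troponin, lies below all the others when its full exon length is used. With all its counts set over its unshared bases it would not (24301 in WT, beside 11070 for Mylk2). Whether reads from the shared bases were counted is not known.

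RefSeq promoter windows, 250 bases before to 50 after a start given by RefSeq, were present for 4 of the 9 genes (build GRCm38.p6). They are shown to set side by side the RefSeq starts of 2 light chain genes, Myl1 and Mylpf, and of 2 thin-filament genes, Tnnc2 and Tpm1. Capitals mark every match to the E-box CANNTG, the sequence that myogenic factors such as MyoD bind, and to the TATA box TATAAA, each searched on both strands. Windows are printed 5′ to 3′ on the strand of the gene. The Myl1 window lies at chr1:66945007-66945306 on the minus strand, Mylpf at chr7:127211358-127211657 on the plus strand, Tnnc2 at chr2:164779685-164779984 on the minus strand and Tpm1 at chr9:67049164-67049463 on the minus strand.
Myl1: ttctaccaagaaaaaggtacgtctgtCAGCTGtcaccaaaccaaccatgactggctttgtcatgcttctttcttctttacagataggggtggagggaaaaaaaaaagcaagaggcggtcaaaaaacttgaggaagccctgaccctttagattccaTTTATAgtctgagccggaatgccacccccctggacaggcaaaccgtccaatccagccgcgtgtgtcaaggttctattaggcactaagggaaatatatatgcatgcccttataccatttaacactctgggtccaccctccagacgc
Mylpf: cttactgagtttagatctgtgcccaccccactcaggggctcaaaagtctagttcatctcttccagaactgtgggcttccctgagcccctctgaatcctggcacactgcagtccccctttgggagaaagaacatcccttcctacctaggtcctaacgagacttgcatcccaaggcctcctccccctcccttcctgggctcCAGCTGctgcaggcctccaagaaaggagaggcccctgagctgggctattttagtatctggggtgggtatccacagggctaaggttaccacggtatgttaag
Tnnc2: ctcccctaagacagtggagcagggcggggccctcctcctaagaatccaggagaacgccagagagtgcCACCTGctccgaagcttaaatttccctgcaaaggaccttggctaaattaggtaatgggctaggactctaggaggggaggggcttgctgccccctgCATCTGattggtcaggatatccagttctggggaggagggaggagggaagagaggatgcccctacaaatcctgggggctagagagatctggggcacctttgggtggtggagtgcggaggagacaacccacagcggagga
Tpm1: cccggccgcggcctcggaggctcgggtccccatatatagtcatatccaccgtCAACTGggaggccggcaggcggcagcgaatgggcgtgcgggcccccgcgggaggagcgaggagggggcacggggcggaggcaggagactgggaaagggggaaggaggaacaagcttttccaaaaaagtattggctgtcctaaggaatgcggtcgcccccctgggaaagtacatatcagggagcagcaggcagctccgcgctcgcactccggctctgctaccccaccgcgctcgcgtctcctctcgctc
Every one of the 4 windows holds an E-box, as do 72.3% of the 32851 promoters in the table. The letters CAGCTG stand at -224 in Myl1 and at -51 in Mylpf, counted from the RefSeq start of the window. The gene ranges given below, from the GENCODE annotation, begin elsewhere: the Myl1 and Mylpf windows lie wholly inside the ranges of these genes. Tnnc2 holds CACCTG at -183 and CATCTG at -88, and Tpm1 holds CAACTG at -198. The Myl1 window alone of the 4 holds the TATA letters, at -95 on the opposite strand, which 13.6% of all promoters hold on either strand. None of the 4 windows holds the MEF2 site (3.19% of all promoters), the MEF3 site TCAGGTT (4.07%) or the CArG box (1.63%). A match describes letters in the window and was not tested as a binding site.

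Myl1 encodes the fast essential light chain and lies on chromosome 1 (GRCm38, 66924295 to 66945404, minus strand). Its normalized count was 405752, 458961 and 422128 in WT 1, 3 and 4, 400666, 486131 and 370396 in Svil-KO 1, 3 and 4, and 417260, 516524 and 262629 in Svil-Mut 1, 2 and 4. Svil-Mut thus held both the highest and the lowest library, and the 3 genotypes overlapped. Mylpf encodes the fast regulatory light chain, the one that is phosphorylated, and lies on chromosome 7 (127208890 to 127214298, plus strand). Its count was 203429, 258926 and 214858 in WT, 207791, 236923 and 184850 in Svil-KO, and 208960, 255794 and 223464 in Svil-Mut, in the same library order. The genotypes overlapped for Mylpf as well. Mylk2 encodes the skeletal muscle kinase that phosphorylates the regulatory light chain and lies on chromosome 2 (152911352 to 152923068, plus strand). The Mylk2 count was 40067, 25958 and 31982 in WT, 37324, 32021 and 28767 in Svil-KO, and 41654, 32656 and 43076 in Svil-Mut. Svil-Mut 1 and 4 lay above all others for Mylk2, while Svil-Mut 2 lay inside the WT range.

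The troponin genes bind tropomyosin (Tnnt3), inhibit the myosin and actin interaction (Tnni2) and bind calcium (Tnnc2). Tnnt3 lies on chromosome 7 (142498836 to 142516009, plus strand) and was counted at 746707, 798612 and 749660 in WT 1, 3 and 4, 738122, 748869 and 671133 in Svil-KO 1, 3 and 4, and 806737, 903978 and 857608 in Svil-Mut 1, 2 and 4. All 3 Svil-Mut libraries were above all other libraries for Tnnt3, while Svil-KO and WT overlapped. Tnni2, close to Tnnt3 on chromosome 7 (142441808 to 142444410, plus strand), was counted at 443972, 478008 and 478821 in WT, 436515, 474904 and 417199 in Svil-KO, and 492265, 518800 and 475209 in Svil-Mut. Every Svil-Mut library exceeded every Svil-KO library for Tnni2, though by a small margin, and Svil-Mut 4 fell inside the WT range.

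Tnnc2 lies on chromosome 2 (164777161 to 164779967, minus strand). The Tnnc2 count was 4812, 5386 and 4966 in WT, 4551, 4902 and 4324 in Svil-KO, and 5205, 5600 and 4768 in Svil-Mut, with overlap between all genotypes. These counts are uncertain as a measure of fast troponin C. Of the 800 exon bases of Tnnc2 in the GENCODE M21 annotation, 592 (74%) are also annotated to Ube2c, a ubiquitin-conjugating enzyme gene on the opposite strand. The library kit does not mark strand, and the submitters' notes do not state the counting settings, so reads of these genes cannot be told apart in those bases. Ube2c itself was counted at 32.4 to 63.2 in the 9 libraries. Tnni2 exceeded Tnnc2 per kilobase 49.4-fold in WT, 51.5-fold in Svil-KO and 51.0-fold in Svil-Mut, and still 12.8-fold, 13.4-fold and 13.3-fold when all Tnnc2 counts were set over its 208 unshared bases. The ratio was similar in the 3 genotypes.

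Tpm1, which encodes the alpha-tropomyosin of fast and cardiac muscle, lies on chromosome 9 (67022590 to 67049406, minus strand). The Tpm1 count was 873158, 852099 and 875268 in WT 1, 3 and 4, 880065, 917164 and 743815 in Svil-KO 1, 3 and 4, and 855457, 1050315 and 906298 in Svil-Mut 1, 2 and 4. The WT libraries were close together. Svil-KO spread to both sides of them, while Svil-Mut lay within and above their range.

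Of the Z-disc pair, Actn3 lies on chromosome 19 (4861216 to 4877909, minus strand). The Actn3 count was 425304, 361135 and 367201 in WT 1, 3 and 4, 402598, 409726 and 360282 in Svil-KO 1, 3 and 4, and 423782, 502517 and 631711 in Svil-Mut 1, 2 and 4. Svil-Mut 4 and Svil-Mut 2 were the highest libraries, and Svil-Mut 1 lay just below WT 1 but above every Svil-KO library. Myoz1, on chromosome 14 (20649107 to 20656540, minus strand), was counted at 107545, 113315 and 107383 in WT, 102547, 114518 and 99084 in Svil-KO, and 115616, 127817 and 113022 in Svil-Mut. Svil-KO 3 exceeded Svil-Mut 4 for Myoz1, so the genotypes overlapped in every comparison.

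**Figure D2:**
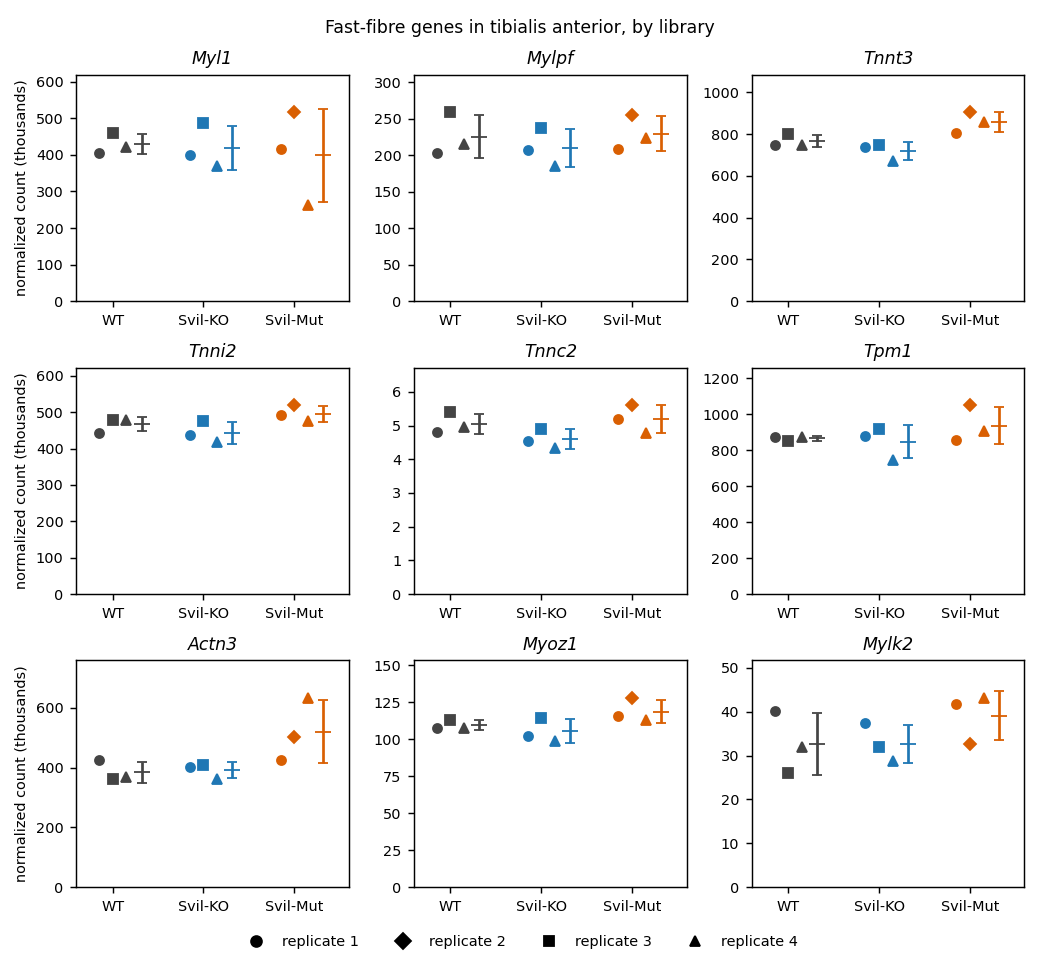
Normalized counts (axis in units of 1000) of the 9 fast-fibre genes, with 1 point per library, the marker shape giving the replicate number and the bar to the right of each group its mean ± SD (n = 3). The Svil-Mut libraries of Tnnt3 lie above all others, and Svil-Mut 4 is the highest library for Actn3 (631711) and the lowest for Myl1 (262629).

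In Svil-KO against WT, none of the 9 genes passed limma's test at a Benjamini-Hochberg adjusted p under 0.05, and 0% of all 15279 genes did. Differences were small: 7 of 9 were negative and 2 positive, from -0.14 for Tnnc2 to 0.03 for Actn3 on the log2 scale. Their median was -0.06 beside 0.003 for all genes tested, of which 50.6% were positive. The Tnnc2 mean of the Svil-KO libraries was 4592 ± 291, and that of WT 5055 ± 297 (SD, n = 3). No member had an unadjusted p under 0.05 (4.11% of all genes did) and none had libraries that did not overlap (10.7% of all genes, in either direction). By edgeR 0 members were called (0% of all genes), and by DESeq2 0 members (0.0262% of all genes). The 95% intervals, which are not adjusted for the number of genes, reached 0.17 to 0.45 on either side of the estimate. Log2 differences smaller than that could not be told from 0, and larger ones need not pass after adjustment. Without Svil-KO 4, the median was -0.01 and 4 of 9 genes were positive. Without Svil-KO 3, it was -0.12 and 8 of 9 were negative.

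In Svil-Mut against WT, 8 of the 9 genes had positive differences (49.3% of all genes did) and Myl1 a negative one, and none passed limma's test at an adjusted p under 0.05, as 0.0393% of all genes did. The median was 0.11 on the log2 scale, beside -0.005 for all genes tested. The largest difference was that of Actn3, whose mean was 519337 ± 104980 in Svil-Mut and 384547 ± 35427 in WT (SD, n = 3), a log2 difference of 0.42 ± 0.13 (SE) with adjusted p = 0.35 by limma. Mylk2 (0.27), Tnnt3 (0.16), Myoz1 (0.12), Tpm1 (0.11) and Tnni2 (0.09) followed on the same scale, with adjusted p from 0.54 to 0.79 by limma. Tnnc2 (0.04) and Mylpf (0.03) were near 0, and Myl1 was at -0.16 with a 95% interval from -0.60 to 0.29. Actn3 alone of the 9 had an unadjusted limma p under 0.05, beside 10% of all genes. Tnnt3 alone had libraries that did not overlap, higher in Svil-Mut, beside 7.13% of all genes, and the exact permutation test of its 3 against 3 libraries gave p = 0.1, the smallest it can give.

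By edgeR, 0 of the 9 genes were called in Svil-Mut against WT (0.0393% of all genes), and by DESeq2 0 were called (1.13% of all genes). The lowest adjusted p by DESeq2 was 0.079, for Actn3. Without Svil-Mut 4, the Actn3 difference was 0.27 with adjusted p = 0.41 by limma, the Myl1 difference was 0.12, and all 9 differences were positive. Without Svil-Mut 2, the median of the 9 was 0.05, 6 were positive, and Myl1 was at -0.37, Tpm1 at 0.02, Myoz1 at 0.06 and Tnni2 at 0.05. Mylk2 was at 0.43 without WT 1 and at 0.12 without WT 3, Tnni2 at 0.05 without WT 1, and Tpm1 at 0.17 without Svil-Mut 1. The differences of Mylpf and Tnnc2, near 0, changed by over 1.5 times or in sign with several libraries.

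In Svil-KO against Svil-Mut, which tests the difference between the effects of both alleles directly, 8 of the 9 genes had negative differences and Myl1 a positive one (0.12), while 51.4% of all genes were positive. None passed limma's test at an adjusted p under 0.05, as 0.0458% of all genes did. The median was -0.17 on the log2 scale, beside 0.009 for all genes tested. Actn3 differed by -0.39 ± 0.13 (SE, adjusted p = 0.37 by limma), Tnnt3 by -0.25 ± 0.08 (adjusted p = 0.35) and Myoz1 by -0.17 ± 0.08 (adjusted p = 0.49). These 3 genes had an unadjusted limma p under 0.05, as 10.2% of all genes did. Actn3, Tnnt3 and Tnni2 had libraries that did not overlap, all lower in Svil-KO, as 7.66% of all genes were. By edgeR 0 members were called (0.0458% of all genes) and by DESeq2 0 members (1.39% of all genes), with a lowest adjusted p by DESeq2 of 0.057 for Tnnt3. Without Svil-Mut 4, the Actn3 difference was -0.24, that of Myl1 was -0.16, and all 9 were negative. Myl1 lay between that value and 0.33, reached without Svil-Mut 2, when other libraries were left out in turn. The median was -0.12 without Svil-Mut 2 and -0.13 without Svil-KO 4, and Tpm1 was then at -0.06 in both cases. Both mutant groups were compared with the same WT libraries, so the values of the 3 comparisons are not independent.

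**Figure D3:**
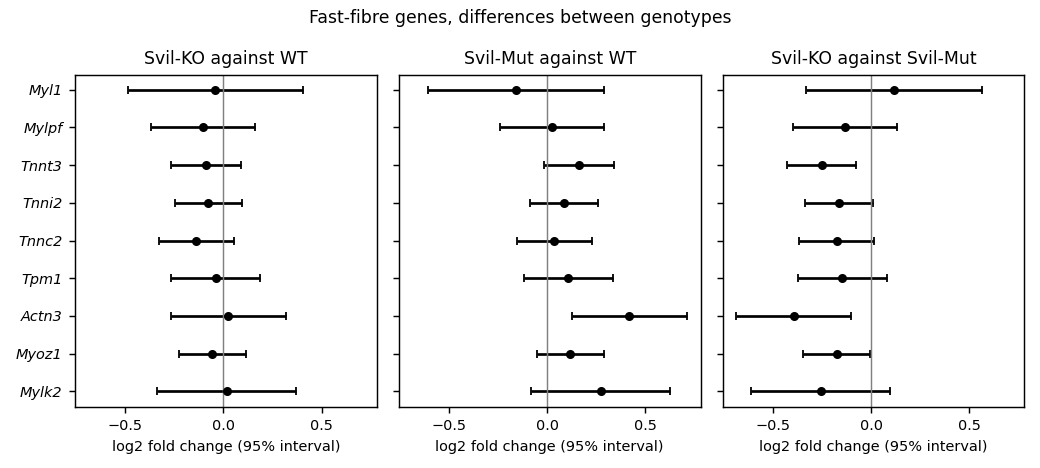
Log2 fold change of each of the 9 genes in the 3 comparisons, with bars for the 95% interval of limma's estimate. Intervals that leave out 0 are those of Actn3 in Svil-Mut against WT and of Actn3, Tnnt3 and Myoz1 in Svil-KO against Svil-Mut, and none of these passed after adjustment over 15279 genes.

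The 9 genes were also compared with each other across libraries. Relative to the WT mean, the median of the 9 was lowest in Svil-KO 4 (-0.19 on the log2 scale), which held the lowest value of 7 genes, and highest in Svil-Mut 2 (0.22), which held the highest value of 6. Over the 9 libraries, Pearson's r of a gene with the mean of the other 8 was 0.94 for Myoz1, 0.90 for Tpm1, 0.90 for Tnnt3 and 0.87 for Tnni2. It was 0.77 for Tnnc2, 0.65 for Mylpf and 0.40 for Actn3. It was 0.04 for Mylk2 and -0.008 for Myl1. Without Svil-Mut 4, an alternative chosen after seeing the data, r over the other 8 libraries was 0.80 for Myl1, 0.77 for Actn3 and 0.01 for Mylk2, and 0.65 to 0.94 for the other 6 genes. The low value of Myl1 thus rests on that library, and that of Mylk2 does not. These correlations share libraries and size factors and are given as a description.

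Myl1 and Actn3 parted in a single library. Actn3 was 2.41 times Myl1 in Svil-Mut 4, and 0.787 to 1.05 times in the other 8 libraries, a contrast chosen after its values were seen. A ratio within a library does not depend on its size factor. Svil-Mut 4 is also the library with the highest red blood cell sum (49200) and the highest sum of 6 adipocyte markers (1668, beside 131 to 1357 in the others). The part of these in the result was not tested.

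**Figure D4:**
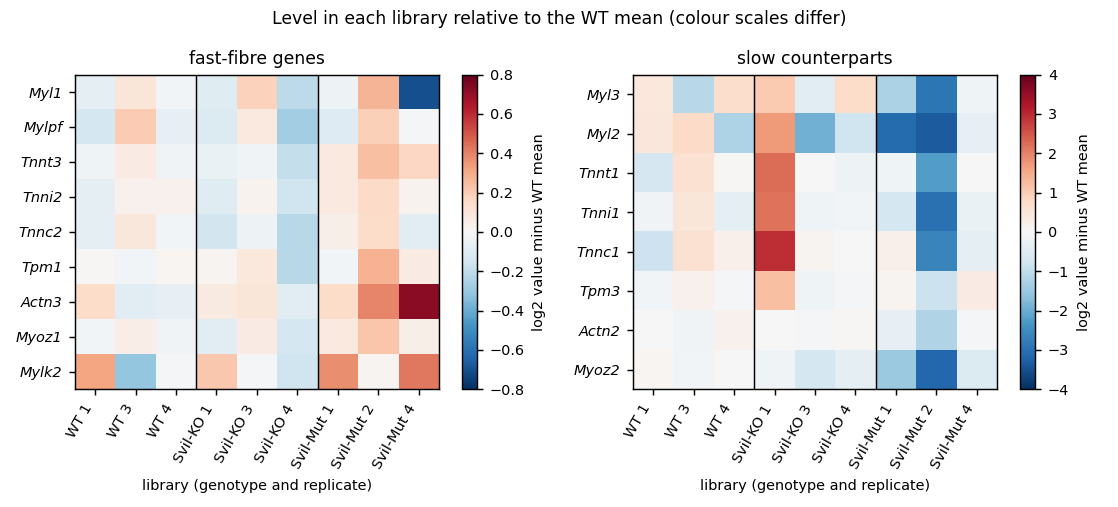
Log2 value of each gene in each library minus its WT mean, for the 9 fast-fibre genes on the left and the 8 slow counterparts on the right, with separate colour scales. On the left, Svil-KO 4 is low for most genes and Svil-Mut 4 is high for Actn3 (0.72) and low for Myl1 (-0.71), and on the right Svil-KO 1 is high and Svil-Mut 2 low.

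Of the 9 fast genes, 8 were paired with a related gene that serves in slow fibres, called here the slow counterpart: Myl3, Myl2, Tnnt1, Tnni1, Tnnc1, Tpm3, Actn2 and Myoz2. Actn2 stood apart, with a WT mean of 45489 beside 199 (Tnnc1) to 6182 (Myl3) for the others. It need not be limited to slow fibres, so Actn3 to Actn2 need not be a ratio of fast to slow fibres. None of the 8 counterparts was called in any comparison by limma, edgeR or DESeq2. In Svil-KO against WT, 5 had positive differences and 3 negative ones, with 0 at an unadjusted limma p under 0.05 (4.11% of all genes). In Svil-KO against Svil-Mut all 8 were positive, as 51.4% of all genes were, with a median of 1.68 on the log2 scale. There 5 of the 8 had an unadjusted limma p under 0.05, beside 10.2% of all genes. In Svil-Mut against WT all 8 had negative differences, with a median of -1.12 on the log2 scale beside -0.005 for all genes, and 3 of 8 at an unadjusted limma p under 0.05, which 10% of all genes had. The 3 were Myoz2 (-1.73, adjusted p = 0.31 by limma), Myl2 (-2.25, adjusted p = 0.47) and Actn2 (-0.52, adjusted p = 0.48). Without Svil-Mut 2, Actn2 was at -0.18, Myoz2 at -1.02 and Myl2 at -1.70. Tpm3 was then positive at 0.22, so the shared sign of all 8 rests on that library. Actn2 was counted at 36273, 19712 and 43969 in Svil-Mut 1, 2 and 4, beside 41026 to 50653 in WT. Myoz2 was counted at 1740, 1538 and 1669 in WT 1, 3 and 4, 1508, 1007 and 1281 in Svil-KO 1, 3 and 4, and 583, 186 and 1125 in Svil-Mut 1, 2 and 4. All Svil-Mut libraries lay below all WT libraries for Myoz2, and Svil-Mut 2 lay furthest below. Because Tpm3 shares sequence with copies such as Tpm3-rs7, its counts are uncertain.

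The fast-to-slow log2 ratio, taken within each library and averaged over the 8 pairs, was 7.66, 7.48 and 7.64 in WT 1, 3 and 4. It was 6.13, 8.07 and 7.51 in Svil-KO 1, 3 and 4, and 8.47, 10.2 and 7.79 in Svil-Mut 1, 2 and 4. WT was tight, Svil-KO spread to both sides of WT, and the Svil-Mut libraries all lay above WT, Svil-Mut 4 by a small margin. The mean over libraries was 7.59 ± 0.10 for WT, 7.24 ± 1.0 for Svil-KO and 8.84 ± 1.27 for Svil-Mut (SD, n = 3). The Svil-Mut mean exceeded the WT mean by 1.24, and by 0.54 without Svil-Mut 2. The Svil-KO mean differed from WT by -0.36, and by 0.20 without Svil-KO 1.

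In the troponin I pair, the spread of the ratio lay mostly in the slow gene. The ratio of Tnni2 to Tnni1, the slow troponin I gene, ranged from 8.68 in Svil-KO 1 to 14.1 in Svil-Mut 2 on the log2 scale. Tnni2 itself stayed between 417199 and 518800 counts, while Tnni1 was counted at 1066 in Svil-KO 1 and at 28.6 in Svil-Mut 2. Of the single pairs, Actn3 to Actn2 (3.08 ± 0.20 in WT, 4.02 ± 0.58 in Svil-Mut) and Myoz1 to Myoz2 (6.05 ± 0.13 in WT, 7.90 ± 1.40 in Svil-Mut; SD, n = 3) did not overlap between Svil-Mut and WT. For each of these pairs the exact permutation p was 0.1, the smallest that 3 against 3 libraries allow, and the other 6 pairs overlapped.

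**Figure D5:**
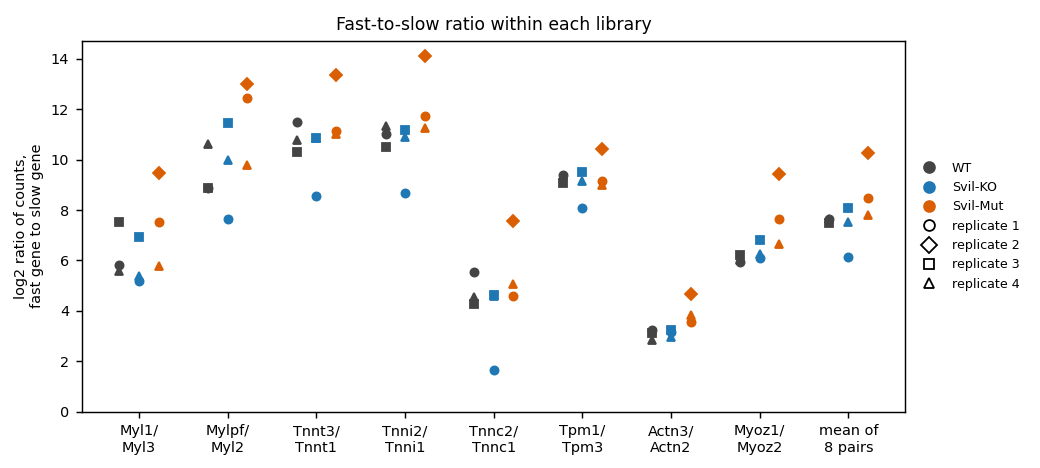
Log2 ratio of the count of each fast gene to that of its slow counterpart within each library, for 8 pairs and their mean, with colour for genotype and marker shape for replicate number. Svil-Mut 2 has the highest ratio in every pair, Svil-KO 1 the lowest in 6 of the 8 single pairs, and the mean of 8 pairs in Svil-Mut 2 is 10.2.

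Other fast-fibre genes were read from the same fit. Of 13 partners of the 9 genes in the fast sarcomere and its calcium release system, 10 had positive differences in Svil-Mut against WT, beside 49.3% of all genes, and 0 were called by limma or edgeR. At an unadjusted limma p under 0.05 were 5 of the 13, beside 10% of all genes. DESeq2 called 2 of them, Acta1 and Ryr1, beside 1.13% of all genes. Acta1, the skeletal muscle actin gene, was counted at 1969095, 2033009 and 1994907 in WT 1, 3 and 4, and at 2475510, 2502111 and 2543895 in Svil-Mut 1, 2 and 4. Its Svil-Mut libraries lay above all others, by 0.33 ± 0.08 (SE) on the log2 scale over WT, with adjusted p = 0.28 by limma and 0.001 by DESeq2. Ryr1, the calcium release channel, differed by 0.23 (adjusted p = 0.30 by limma and 0.046 by DESeq2). Negative differences were found for 3 of the 13, among them Myh2, the fast oxidative myosin heavy chain gene, at -1.84 (adjusted p = 0.32 by limma). Myh2 was counted at 15669, 3474 and 21748 in Svil-Mut 1, 2 and 4, beside 31100 to 44893 in WT, and its difference was -1.04 without Svil-Mut 2. Myh1, another fast heavy chain gene, was named after its values were seen. Its mean was 151078 ± 71707 in Svil-Mut and 229915 ± 43403 in WT (SD, n = 3).

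Among 16 Z-disc genes linked to the actinins, none was called by limma or edgeR in any comparison, with 1 at an unadjusted limma p under 0.05 for Svil-KO against WT (4.11% of all genes), 5 for Svil-Mut against WT (10%) and 6 between the mutants (10.2%). DESeq2 called 1 in Svil-Mut against WT (1.13% of all genes) and 1 between the mutants (1.39%). Csrp3, which encodes the muscle LIM protein, had the largest difference, -2.64 in Svil-Mut against WT (adjusted p = 0.23 by limma and 0.046 by DESeq2). Its counts were 3028, 1683 and 4495 in WT 1, 3 and 4, 1351, 1837 and 1451 in Svil-KO 1, 3 and 4, and 641, 146 and 1001 in Svil-Mut 1, 2 and 4. The Csrp3 difference was -1.82 without Svil-Mut 2 and -3.21 without Svil-Mut 4. Pdlim5 (-0.22) and titin, Ttn (0.40), had adjusted p of 0.36 and 0.40 by limma, and Ttn was at 0.24 without WT 4. Pdlim3, the actinin-associated LIM protein gene, was named after its values were seen. It was counted at 24361 to 24639 in the Svil-KO libraries, 29225 to 29927 in WT and 29863 to 34111 in Svil-Mut, and its Svil-KO libraries lay below all others. Its difference in Svil-KO against Svil-Mut was -0.39, with adjusted p = 0.087 by limma and 1.1e-05 by DESeq2.

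Of 11 genes that act with Mylk2 in light chain phosphorylation, 0 were called by limma or edgeR, with 2, 3 and 5 at an unadjusted limma p under 0.05 in the same order of comparisons, beside 4.11%, 10% and 10.2% of all genes. Ppp1r12b, which encodes a targeting subunit of myosin phosphatase and so acts opposite to the kinase, was counted at 6485, 7685 and 6275 in WT 1, 3 and 4, 6714, 6709 and 7422 in Svil-KO 1, 3 and 4, and 4931, 5303 and 4245 in Svil-Mut 1, 2 and 4. The Svil-Mut libraries lay below all others. The log2 difference of Ppp1r12b was -0.50 ± 0.10 (SE) against WT, with adjusted p = 0.20 by limma and 0.0039 by DESeq2. Calmodulin 2, Calm2, differed by 0.37 (adjusted p = 0.33 by limma), and the kinase gene Mylk4 by -0.17 (adjusted p = 0.45). DESeq2 called Ppp1r12b alone of the 11 in Svil-Mut against WT (1.13% of all genes), and Ppp1r12b and Mylk4 in Svil-KO against Svil-Mut (1.39%), both higher in Svil-KO.

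Of 13 genes of the calcineurin pathway that calsarcins bind, 0 were called by limma, edgeR or DESeq2 in any comparison, with 0, 1 and 3 at an unadjusted limma p under 0.05, beside 4.11%, 10% and 10.2% of all genes. Mef2c, a transcription factor of muscle genes, differed by -0.22 in Svil-Mut against WT (adjusted p = 0.33 by limma). Nfatc4 (0.99, adjusted p = 0.51) and the calcineurin catalytic subunit gene Ppp3ca (0.20, adjusted p = 0.52) had larger adjusted values. Of 16 regulators of the fast programme, 14 had positive differences in Svil-Mut against WT (49.3% of all genes did), with a median of 0.25 on the log2 scale beside -0.005 for all genes. By limma or edgeR 0 were called, with 6 at an unadjusted limma p under 0.05 (10% of all genes). DESeq2 called Myod1 there (1.13% of all genes), and Myod1, Maf and Mafa in Svil-KO against Svil-Mut (1.39%), all lower in Svil-KO. Myod1, the myogenic factor that binds E-boxes, was counted at 2028, 1811 and 1651 in WT 1, 3 and 4, 1726, 1852 and 2115 in Svil-KO 1, 3 and 4, and 2113, 3455 and 3022 in Svil-Mut 1, 2 and 4. Svil-Mut 1 lay just below Svil-KO 4, so those groups overlapped, while WT and Svil-Mut did not. The Myod1 difference in Svil-Mut against WT was 0.62 ± 0.17 (SE), with adjusted p = 0.29 by limma and 0.025 by DESeq2, and that of Maf was 0.66 (adjusted p = 0.33 by limma and 0.053 by DESeq2). Leaving out Svil-Mut 2 gave 0.47 for Myod1 and 0.57 for Maf, and leaving out Svil-Mut 1 gave 0.83 and 0.82.

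The genes whose pattern over the 9 libraries was most like the mean centred log2 profile of the 9 fast genes were sought among 4197 genes outside all lists with a mean count of at least 1000. They were Cnep1r1 (r = 0.95), Fbxl4 (0.94), Csnk1d (0.93), Sugt1 (0.93) and Ctsa (0.93), with root mean square differences of 0.03, 0.07, 0.04, 0.05 and 0.04 on the log2 scale in the same order. None of these 5 passed limma's test in any comparison, and all had negative differences in Svil-KO and positive ones in Svil-Mut against WT. They were chosen for their likeness from many genes over 9 libraries, so the values describe the choice.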

How the data were processed

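RNA of the left tibialis anterior was reverse-transcribed with an oligo(dT) primer, amplified as full-length cDNA and tagmented, per the labels' protocols. Per the submitters' processing notes, HISAT2, featureCounts and DESeq2 were used on mm10, and neither settings nor annotation are stated there. The values deposited by the authors are a signal: reads per gene scaled by a size factor for each library. Each library has 1 step of which all its nonzero values (100%) are whole multiples, within 0.001 reads, and dividing by it recovered the reads.

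The main test was limma 3.58.1 in R 4.3.3 on log2(normalized count + 1), with a mean-variance trend, genotype as factor and all 9 libraries in 1 fit. Genes needed a value of 10 in at least 3 libraries. P-values were Benjamini-Hochberg adjusted over 15279 genes in each of 3 comparisons, and a gene was called at an adjusted p under 0.05. Log2 differences and fold changes refer to that scale. Single values were also compared by a 2-sided exact permutation test. The alternatives were other pseudocounts (0.5 and 10), filters (none, and a mean of 50), scalings (equal totals, quantile, and size factors without the 100 most abundant genes), variance models, edgeR 4.0.16 and DESeq2 1.42.0 on the recovered reads, fits limited to the 2 genotypes compared or with a replicate block, and leaving out each library. The limma step was tested on simulated data.

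Positions and exon lengths came from GENCODE M21 (GRCm38), which holds the symbols of 86.6% of the genes in the table and need not be the annotation the authors counted on. Promoters came from RefSeq. The 9 genes and the other lists were chosen with earlier results of these data known. All 9 genes are named in every comparison. Of each other list, the up to 3 genes with the smallest unadjusted p in Svil-Mut against WT are named, with any that pass. The slow counterparts are named for their ratios, and 5 genes outside the lists for their likeness. P-values measure the spread between 3 mice per genotype.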

Additional observations from a re-analysis of the deposited data

How the results depend on the processing

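None of the 9 genes was called in any of the 3 comparisons under any of the 23 alternatives to each. Of their 621 recomputed differences, 605 did not reverse and 16 did, and 19 of 27 differences never reversed. Many of the 605 could not have reversed. Other filters, dropping the trend, robust estimation and fits limited to the genotypes compared leave the log2 difference itself unchanged. Leaving out a library of the genotype not compared does so too, and other pseudocounts hardly move it. The counts are therefore no measure of stability. With equal totals, Mylk2 reversed to -0.00082 in Svil-KO against WT and Mylpf to -0.0068 in Svil-Mut against WT. Leaving out 1 library reversed Svil-KO against WT differences of Myl1 (-0.15 to 0.043 over the libraries left out), Tpm1 (-0.10 to 0.052), Actn3 (-0.018 to 0.10) and Mylk2 (-0.14 to 0.17). In Svil-Mut against WT it did so for Mylpf (-0.055 to 0.13), Tnnc2 (-0.019 to 0.10) and Myl1 (-0.37 to 0.12), and in Svil-KO against Svil-Mut for Myl1 (-0.16 to 0.33). Quantile normalization sets genes that hold the same rank in every library to equal values, so differences of the most abundant genes are then 0 by construction. Such values were counted as not reversed.

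Among the other named genes, Svil-KO against WT differences reversed on leaving out 1 library for Myl2 (-1.35 to 0.46), Ttn (-0.19 to 0.12), Ppp3ca (-0.13 to 0.019), Ppp1r12b (-0.025 to 0.12), Alas2 (-0.82 to 0.45), Myl3 (-0.12 to 0.88), Actn2 (-0.086 to 0.067), Nfatc4 (-0.29 to 0.42), Myod1 (-0.029 to 0.13), Tnnt1 (-0.11 to 1.10), Tnni1 (-0.15 to 1.04), Tpm3 (-0.12 to 0.55), Myh2 (-0.33 to 0.0092) and Maf (-0.32 to 0.048). Myl2 was at 0.23 by edgeR and 0.23 by DESeq2. Tpm3 in Svil-Mut against WT was at 0.15 with the replicate block, and at -0.38 to 0.22 on leaving out 1 library.

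Over all genes, DESeq2 called 4 in Svil-KO against WT where limma called 0, 172 in Svil-Mut against WT where limma called 6, and 212 in Svil-KO against Svil-Mut where limma called 7. In Svil-Mut against WT, 19 were called with a pseudocount of 10, 16 with a mean of at least 50, 16 with robust estimation and 14 with only the 2 genotypes compared. Leaving out 1 library gave 4 to 18 calls in Svil-Mut against WT and 4 to 13 in Svil-KO against Svil-Mut. The first was 18 without Svil-Mut 1, 17 without Svil-KO 1, 13 without Svil-Mut 4 and 12 without Svil-KO 3, and the second was 13 without Svil-KO 1 and 4 without Svil-KO 4. The cause of these changes was not tested. Same-numbered libraries did not deviate together (correlations of deviations -0.056 to 0.044), so the numbers were not taken as pairs. With the replicate block, 0, 7 and 6 genes were called in the 3 comparisons, none of them among the 9, and Svil-Mut 2, alone with its number, does not inform that fit.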
